A study of Sus scrofa with 20 samples.

Results

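The transcripts described here belong to 60 genes of the cell cycle and of DNA replication, measured in caecal mucosa of 20 pigs. The genes were listed by symbol, from cyclins and their kinases to replication factors and the proteins of the mitotic spindle. A listed gene entered when the array annotation gave its symbol to a probeset with values, and where several probesets carried the symbol the one with the highest mean over the 20 pigs was taken. In this way 46 of the 60 genes were measured, out of 10567 named genes and 25092 probesets with values in all. They were divided by role into control of the entry into DNA synthesis (G1/S control, 11 of 13 listed genes measured), replication (13 of 15) and mitosis (22 of 31). The proliferation marker MKI67 stood alone in the list and was among the 14 genes without a value. Of these 14, 4 had no probeset in the annotation (CCNA2, CCND1, AURKA and KIF20A), and 10 had annotated probesets without values (MKI67, CCND2, CDC6, CDC20, CDC25B, MCM7, BUB1B, AURKB, TTK and NDC80).

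The pigs were Large White x Landrace crosses of both sexes, kept as intact litters in 1 pen per litter with free access to feed and slaughtered as growing-finishing pigs. Each of 5 litters, named by its sow, gave 4 pigs, a male and a female per efficiency class, so that 10 pigs of high feed efficiency stood against 10 of low feed efficiency. Pigs of high feed efficiency had a low residual feed intake (RFI), which is the intake beyond what weight gain and body composition predict, and according to the methods the most divergent littermates of each sex were chosen. Litter and pen were the same unit and cannot be told apart, and diet was shared by all pigs. RNA of scraped mucosa was hybridised to the porcine snowball microarray, 1 array per pig, and the values are on the log2 scale after robust multichip averaging, so that a difference of 1 is a 2-fold change.

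In a dividing cell, cyclins bind cyclin-dependent kinases and drive the transitions between phases. E2F factors raise transcription of replication genes before DNA synthesis, the MCM proteins form the helicase that opens the DNA, and the set of genes under FOXM1 and related factors peaks later, when chromosomes condense, the spindle forms and the anaphase-promoting complex destroys cyclin B. In the large intestine division takes place in the lower crypt, while cells on the surface between crypts have left the cycle, and lymphoid follicles of the mucosa hold dividing B cells.

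The 20 arrays correlated with each other between 0.942 and 0.974 over all probesets, and their number limits the precision of every comparison. The presence of epithelium was checked with its markers, of which 7 of 10 were measured, with means between 8.44 and 12.6. Of 15 listed markers of mature colonocytes 5 were measured, with means between 4.86 and 12.1. Which segment of the gut the samples came from was not checked. A leading principal component of all probesets outside the cell cycle genes, called array axis 1 here, held 17.1% of the variance between arrays. Its score correlated with the number of the pig in the study (r = 0.87, rho = 0.86, and r = 0.75 with litter means removed). Its mean was -0.14 ± 1.16 in pigs of high and 0.14 ± 0.85 in pigs of low feed efficiency (SD, n = 10 each), in units of its SD, and litter means ran from -0.98 (sow 1406) to 0.98 (sow 1435). The labels do not say what the pig number marks beyond the animal, and no slaughter or array batch was analysed here. In a bulk sample fewer cells of a type and less RNA per cell cannot be told apart.

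The SD over the 20 pigs had a median of 0.42 among mitosis genes, 0.30 among replication genes and 0.30 among G1/S control genes, beside 0.28 over all named genes. CDK2, the kinase partner of cyclin E, varied least with an SD of 0.19 around a mean of 6.05. FOXM1, a transcription factor for G2 and M genes, and RRM1, the large subunit of ribonucleotide reductase, had SDs of 0.19 as well. At the other end CDT1, which loads the MCM helicase, had an SD of 1.24 and lay between 0.91 and 4.95. PRC1, a bundler of midzone microtubules, had an SD of 1.21 and values from 1.78 to 6.92, and NUSAP1, a spindle-associated protein, had an SD of 1.16 and values from 2.22 to 6.51. These 3 genes did not pass for litter (unadjusted p between 0.495 and 0.916 in limma), and littermates could lie far apart. For CDT1, for example, the pigs of sow 1410 had 4.72 and 2.98 in the high efficiency male and female, against 4.95 and 1.75 in the low efficiency male and female. The heat map of all members shows that a block of mitosis genes moved together from pig to pig. With TOP2A, a gene of that block, CDT1 had r = -0.14, PRC1 0.11 on its brightest probeset and NUSAP1 0.37.

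**Figure D1:**
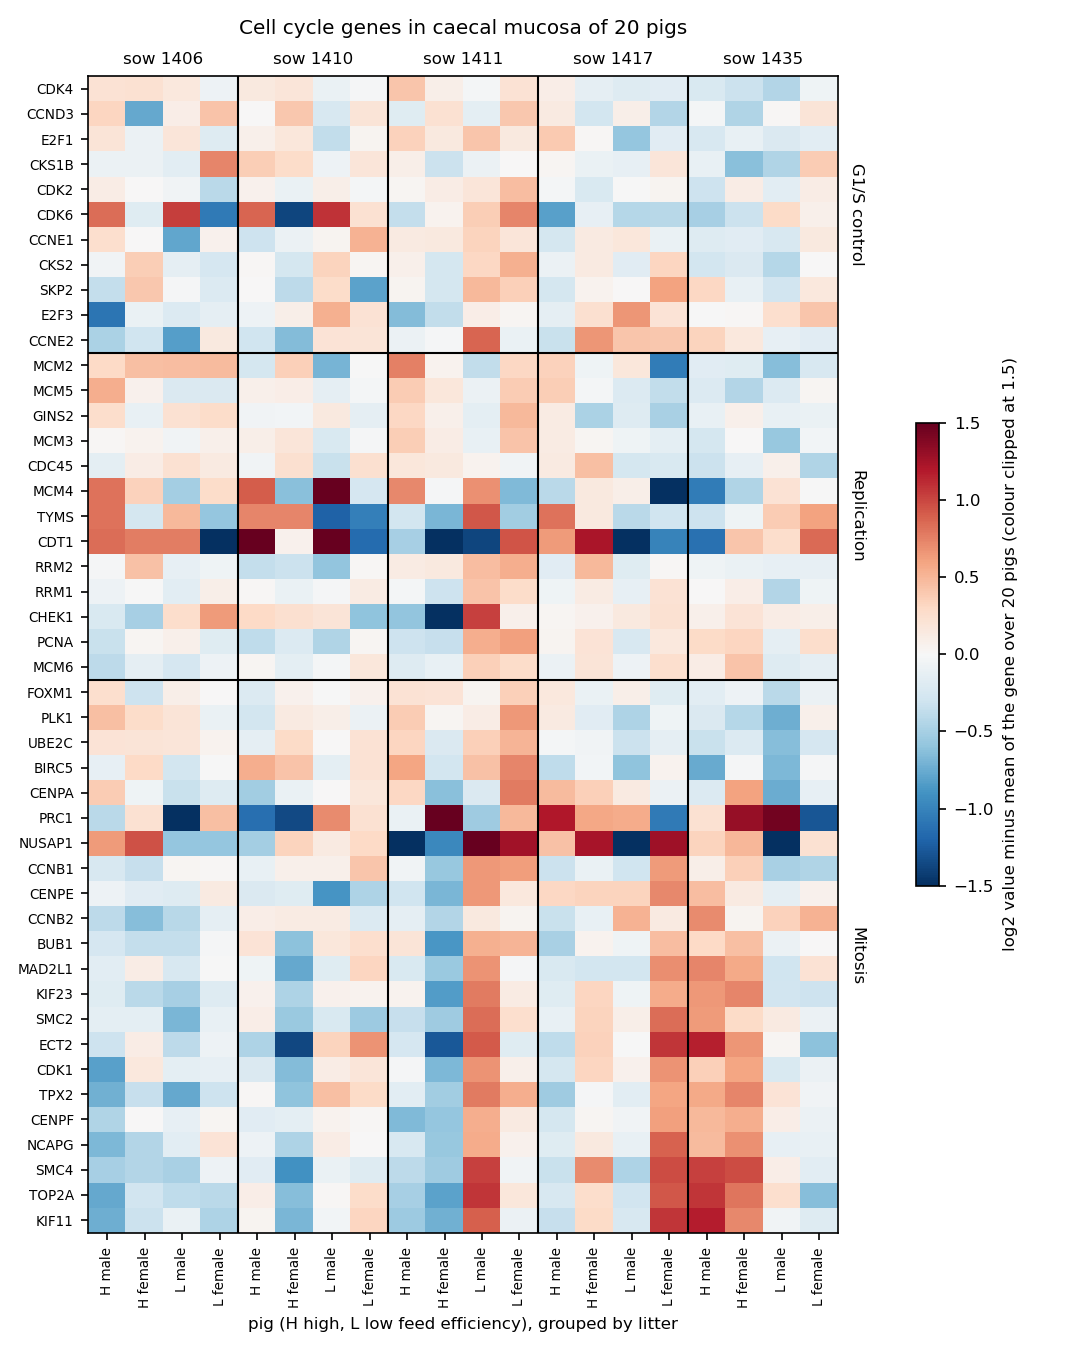
Each row is 1 of 46 cell cycle genes and each column 1 of 20 pigs, grouped by sow with the high efficiency pigs (H) left of the low efficiency pigs (L); colour gives the log2 value less the mean of the gene. The mitosis genes from BUB1 down to KIF11 share their colour in most pigs, being above their means in both high efficiency pigs of sow 1435 and below them in the high efficiency female of sow 1411.

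The main question of the study was whether pigs of high and low feed efficiency differ. Among the 43 cell cycle genes tested, none passed an adjusted p under 0.05 (limma with sow in the model). The threshold of the study was an unadjusted p under 0.05, and 1 gene passed it. Over all 23140 probesets tested the background was 0% at the adjusted and 4.48% at the unadjusted threshold (2.54% above and 1.94% below 0), so that 1 of 43, or 2.33%, was near the background. The difference of high minus low feed efficiency was above 0 in 15 and below 0 in 28 of the genes, with a median of -0.10, beside a median of 0.0035 and 51.1% above 0 over all probesets. CDT1, PRC1 and NUSAP1 were removed from this test by the study's filter on probesets with a high SD in both groups.

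The gene with the unadjusted p under 0.05 was E2F3, an activating E2F transcription factor of the G1/S transition. Its log2 values lay between 4.04 and 5.38, with a median of 5.05, in pigs of high feed efficiency, and between 4.93 and 5.80, with a median of 5.35, in pigs of low feed efficiency. The groups overlapped, but the lowest 3 of the 20 values belonged to high efficiency pigs. E2F3 averaged 4.93 ± 0.40 in high and 5.34 ± 0.28 in low efficiency pigs (SD, n = 10 each), a difference of -0.42 ± 0.11 (SE), with p = 0.00143 unadjusted and 0.980 adjusted in limma. The high efficiency pig had the lower value in 8 of 10 pairs of littermates of the same sex. Over the alternative analyses the difference of E2F3 lay between -0.49 and -0.35, with adjusted p-values between 0.553 and 0.9998.

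Of the other G1/S genes, 2 had a difference above 0 and 8 below 0. E2F1, another activating E2F factor, ranged from 5.46 to 6.09 (median 5.82) in high and from 5.13 to 6.12 (median 5.54) in low efficiency pigs. Its difference of 0.18 ± 0.10 thus had the opposite sign to that of E2F3, and over the 20 pigs both genes correlated negatively (r = -0.62). CDK4, the kinase partner of D cyclins, ranged from 8.80 to 9.54 (median 9.25) in high and from 8.68 to 9.34 (median 9.05) in low efficiency pigs, a difference of 0.14 ± 0.08. CDK4, like E2F1, was higher in the high efficiency pig of 8 of 10 pairs. For both genes the groups overlapped over most of their range and the adjusted p was 0.980 in limma.

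Of 12 replication genes tested 8 had a difference above 0, with a median of 0.05 and a range from -0.43 to 0.33. With pigs or litters left out this median lay between -0.024 and 0.087, and it was below 0 without the litter of sow 1417. The MCM2, MCM3 and MCM5 genes encode subunits of the replicative helicase. MCM2 ranged from 7.97 to 8.99, with a median of 8.41, in high efficiency pigs, and from 7.19 to 8.71, with a median of 8.11, in low efficiency pigs. The 3 lowest values of MCM2 all came from low efficiency pigs. It averaged 8.39 ± 0.33 in high and 8.07 ± 0.53 in low efficiency pigs, a difference of 0.32 ± 0.16 (p = 0.0673 unadjusted, adjusted p = 0.980 in limma). With each pair of 1 sow and 1 sex as a block MCM2 passed the unadjusted threshold (p = 0.0389, adjusted p = 0.969), as it did with pig number as a covariate (p = 0.0333, adjusted p = 0.796, limma).

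MCM5 had a difference of 0.21 ± 0.11, from 6.79 to 7.78 (median 7.32) in high and 6.86 to 7.62 (median 7.07) in low efficiency pigs, and MCM3 one of 0.14 ± 0.09. The high efficiency pig was the higher one in 7 pairs for MCM2 and MCM5 and in 8 pairs for MCM3. CDC45, which binds MCM and GINS in the active helicase, had a difference of 0.12 ± 0.11, which lay between 0.017 and 0.20 over the alternatives, and was higher in 6 pairs. PCNA, the sliding clamp of the polymerases, averaged 5.47 ± 0.28 in high and 5.61 ± 0.34 in low efficiency pigs, a difference of -0.14 ± 0.13. CHEK1, the kinase of the replication checkpoint, had the lowest difference of all replication genes at -0.43 ± 0.23. Its values ran from 2.72 to 4.76 (median 4.51) in high and from 3.85 to 5.48 (median 4.63) in low efficiency pigs. The medians of CHEK1 were closer than its means, and the single value of 2.72, from the female of sow 1411, stood far below the next one in its group, 3.86. Over the alternatives the difference of CHEK1 lay between -0.66 and -0.11.

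Mitosis genes lay mostly below 0, in 15 of 20 tested, with a median difference of -0.19 and a range from -0.35 to 0.12. CCNB1 (cyclin B1), whose complex with CDK1 starts mitosis, ranged from 6.26 to 7.19 (median 6.72) in high and from 6.34 to 7.48 (median 6.87) in low efficiency pigs. The high efficiency pig was the lower one in 8 of 10 pairs, and both exceptions were in the litter of sow 1435. CCNB1 averaged 6.70 ± 0.26 in high and 6.95 ± 0.45 in low efficiency pigs, a difference of -0.24 ± 0.16. CCNB2, the gene of cyclin B2, ranged from 7.48 to 8.83 (median 8.0) in high and from 7.70 to 8.65 (median 8.25) in low efficiency pigs, with a difference of -0.21 ± 0.11. TOP2A (topoisomerase II alpha), which untangles replicated chromosomes, ranged from 5.78 to 7.65 (median 6.32) in high and from 5.94 to 7.66 (median 6.67) in low efficiency pigs. The ranges of TOP2A nearly coincided, and its difference of -0.20 ± 0.25 was smaller than its SE.

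Among the further mitosis genes, TPX2, an activator of Aurora A kinase on the spindle, had a difference of -0.31 ± 0.17, BUB1, a kinase of the spindle checkpoint, one of -0.28 ± 0.16, and CENPF, a kinetochore protein, one of -0.24 ± 0.14. The high efficiency pig had the higher value of TPX2 in 3, of BUB1 in 4 and of CENPF in 2 of 10 pairs. These differences did not pass (adjusted p = 0.980 each in limma). Over the alternatives they lay between -0.54 and -0.14 for TPX2, between -0.45 and -0.13 for BUB1 and between -0.43 and -0.065 for CENPF. The 5 mitosis genes above 0 were CENPA, PLK1, BIRC5, FOXM1 and UBE2C, with differences between 0.0072 and 0.12. With array axis 1 in the model, an alternative added after seeing the data, the median difference was -0.03 for mitosis and 0.06 for replication genes.

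The difference in mitosis genes was not of the same sign in every litter. The mean of the 22 measured mitosis genes, each centred on its own mean over 20 pigs, was higher in the high than in the low efficiency pig by 0.63 in the male and 0.61 in the female pair of sow 1435. In the litter of sow 1411 it was lower in the high efficiency pig, with differences of -0.74 in the male and -0.79 in the female pair. In gene counts, 20 of 22 mitosis genes were higher in the high efficiency pigs of sow 1435 and 2 lower, whereas 2 were higher and 20 lower in those of sow 1411. For TOP2A the high efficiency pigs of sow 1435 had 7.65 in the male and 7.39 in the female, against 6.84 and 5.94 in the low efficiency male and female. In the litter of sow 1411 the high efficiency male and female had 6.09 and 5.78, against 7.66 and 6.75 in the low efficiency male and female. Between these litters the order of the groups was thus reversed for TOP2A, as it was for CCNB1. The score on array axis 1 was reversed as well. In the litter of sow 1435 it was 1.56 and 1.46 in the high against 0.74 and 0.18 in the low efficiency male and female. For sow 1411 it was -0.95 and -1.38 against 0.40 and -0.29. Pig numbers were likewise higher in the high efficiency pigs of sow 1435 (438 and 440 against 432 and 434) and lower in those of sow 1411 (412 and 408 against 413 and 415). Their part was not tested.

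With each litter left out in turn, the number of cell cycle genes at an unadjusted p under 0.05 was 3 without sow 1406, 3 without sow 1410, 1 without sow 1411, 1 without sow 1417 and 14 without sow 1435. The background over all probesets was 4.14%, 3.90%, 4.37% and 4.11% in the first 4 of these fits and 8.38% without sow 1435. The 14 of 43 genes in that last fit were 32.6%, and none passed the adjusted threshold (lowest adjusted p among them 0.553, limma). They comprised 11 mitosis genes, all lower in high efficiency pigs, among them CCNB1 (-0.48 ± 0.14), TPX2 (-0.54 ± 0.17), CENPF (-0.43 ± 0.14), TOP2A (-0.53 ± 0.22) and NCAPG (-0.51 ± 0.14), a subunit of the condensin complex. The other 3 were E2F3 (-0.44 ± 0.13), which was lower, and CDK4 (0.18 ± 0.08) and MCM5 (0.32 ± 0.11), which were higher in high efficiency pigs. Without this litter the median difference of mitosis genes was -0.40, against -0.19 with all litters, and without the litter of sow 1411 it was 0.0073. Whether the efficiency difference depended on the litter was not tested.

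**Figure D2:**
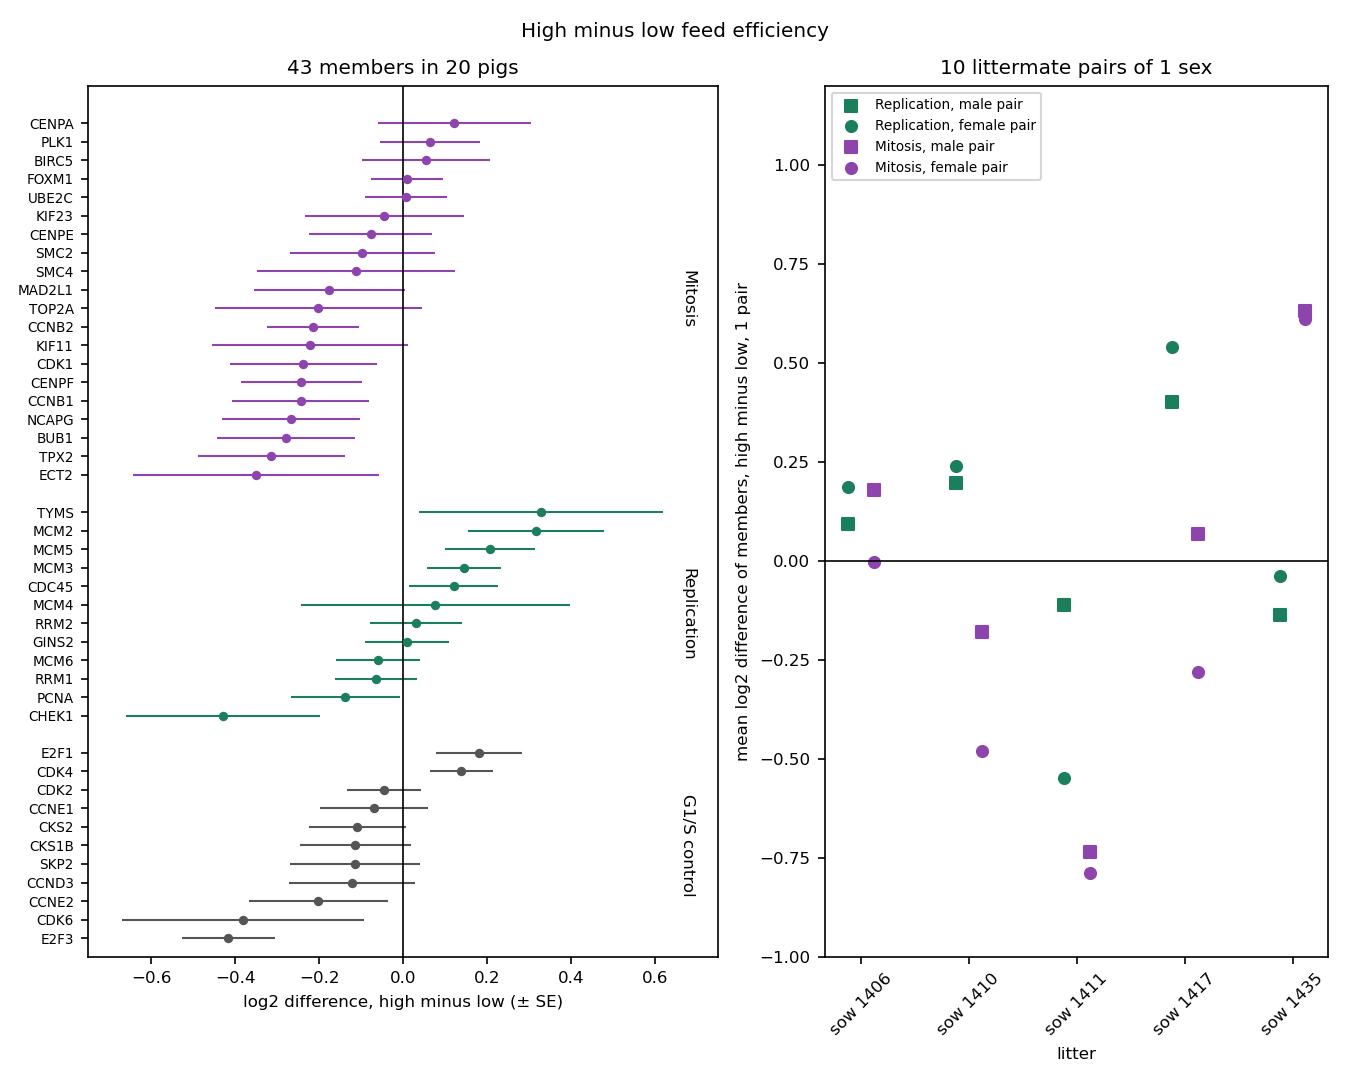
Left, the log2 difference of high minus low feed efficiency with its SE for 43 cell cycle genes, in which E2F3 lies at -0.42 and MCM2 at 0.32; right, the mean difference of replication and of mitosis genes in each pair of littermates of 1 sex (squares male, circles female). Mitosis genes lie at 0.63 and 0.61 in the male and female pairs of sow 1435 and at -0.74 and -0.79 in those of sow 1411.

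The sexes were compared in all 46 genes, in a model that also held sow and efficiency class. None passed at an adjusted p under 0.05 or at an unadjusted p under 0.05 (limma), where the background over all probesets was 0% and 4.29% (2.61% higher and 1.69% lower in males). The smallest p-value, 0.0528 unadjusted, belonged to RRM2, the small subunit of ribonucleotide reductase, with a difference of male minus female of -0.21 ± 0.10. MCM4, a helicase subunit, had 0.62 ± 0.30, CDK6, a partner of D cyclins, 0.48 ± 0.28 and TYMS, which makes thymidylate, 0.39 ± 0.29. BIRC5 (survivin, of the chromosomal passenger complex) had -0.28 ± 0.14 and NUSAP1 -0.91 ± 0.50.

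The efficiency difference was also compared between males and females. Of 43 genes none passed an adjusted p under 0.05, and 2 (4.65%) had an unadjusted p under 0.05, beside a background of 0% and 4.11%, 2.04% above and 2.07% below 0 (limma). CKS1B, a small subunit of cyclin-dependent kinases that acts in the destruction of the inhibitor p27, was higher in the high efficiency pig of 5 of 5 male pairs, by 0.24 on average. In the female pairs it was higher in 1 of 5, with a mean difference of -0.47, so that the male difference exceeded the female one by 0.70 ± 0.21 (p = 0.00424 unadjusted, adjusted p = 0.999). In the females of sow 1435 CKS1B was at 2.84 in the high against 3.84 in the low efficiency pig, the widest of the female gaps. E2F3 had a mean difference of -0.66 in males, where the high efficiency pig was lower in all 5 pairs, and of -0.17 in females, a difference between the sexes of -0.49 ± 0.19 (p = 0.0197 unadjusted, adjusted p = 0.999). MCM5 had 0.39 ± 0.20 and CDC45 -0.23 ± 0.21 in this comparison. Over the mitosis genes the median was 0.18, with 17 of 20 above 0, beside a median of -0.0004 and 49.9% above 0 over all probesets. Many mitosis genes moved together over pigs, so that these signs are not independent of each other.

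Litters were compared by limma's F test of the 4 contrasts between sows, in a model that also held efficiency class and sex. None of the 46 genes passed an adjusted p under 0.05 and 8 (17.4%) had an unadjusted p under 0.05, against a background of 0.126% and 16.1% of all probesets, so that the cell cycle genes differed between litters about as often as probesets did in general.

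UBE2C, the ubiquitin-conjugating enzyme of the anaphase-promoting complex, had values of 7.72, 7.17, 7.75 and 7.91 in the litter of sow 1411 and of 7.06, 7.19, 6.75 and 7.15 in that of sow 1435, each in the order high male, high female, low male and low female. Its litter means were 7.64 ± 0.32 and 7.04 ± 0.20 (SD, n = 4), and only the high efficiency female of sow 1411 reached into the range of sow 1435. CDK4 likewise had its highest mean, 9.30, in the litter of sow 1411 and its lowest, 8.86, in that of sow 1435. BIRC5 had means of 7.76 in the litter of sow 1411 and 7.02 in that of sow 1435, and PLK1, a kinase of mitotic entry and spindle assembly, had 8.61 and 7.99. Their p-values were 0.00896 for UBE2C, 0.0123 for CDK4, 0.0203 for BIRC5 and 0.0339 for PLK1, unadjusted, and between 0.197 and 0.277 adjusted (limma). When the high efficiency female of sow 1411 was left out, BIRC5 passed with an adjusted p of 0.0467, the one call among all alternatives of the litter test. The lowest F over all alternatives was 1.19 for UBE2C, 0.86 for CDK4 and 1.13 for PLK1, against 4.89, 4.52 and 3.40 in the fit above. With single pigs left out F stayed at or above 3.39, 3.13 and 2.49. For BIRC5 the lowest F was 3.05, against 3.95. Their r with the pig number was -0.67 for UBE2C, -0.69 for CDK4, -0.56 for PLK1 and -0.39 for BIRC5.

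CCNB2 was highest where those genes were lowest. Its values were 7.73, 7.48, 7.70 and 7.99 in the litter of sow 1406 and 8.83, 8.17, 8.47 and 8.64 in that of sow 1435, in the order of pigs given above, and the litters did not overlap. The litter means of CCNB2 were 7.73 ± 0.21 and 8.52 ± 0.28 (F = 5.71, p = 0.00467 unadjusted, adjusted p = 0.166 in limma), the smallest p of the 46 genes. Its lowest F was 2.03 over all alternatives and 4.20 with single pigs left out, and CCNB2 had r = 0.58 with the pig number. E2F3 had its lowest mean, 4.75, in the litter of sow 1406 and its highest, 5.38, in that of sow 1417. CENPE, the kinesin that carries chromosomes to the spindle equator, was lowest in the litter of sow 1410, at 3.48, and highest in that of sow 1417, at 4.34. RRM2 was lowest at 5.85 in the litter of sow 1410, highest at 6.49 in that of sow 1411, and its values in the litter of sow 1435 lay within 6.04 to 6.10.

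B cell markers, measured for 7 of 14 listed genes, moved with the litter as well. All 7 had an unadjusted p under 0.05 in the same test, MS4A1, which encodes CD20, had an adjusted p of 0.0397, and their mean, centred per gene, was lowest in the litter of sow 1406 (-0.78) and highest in that of sow 1411 (0.77). Their part in the litter values of the cell cycle genes was not tested.

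**Figure D3:**
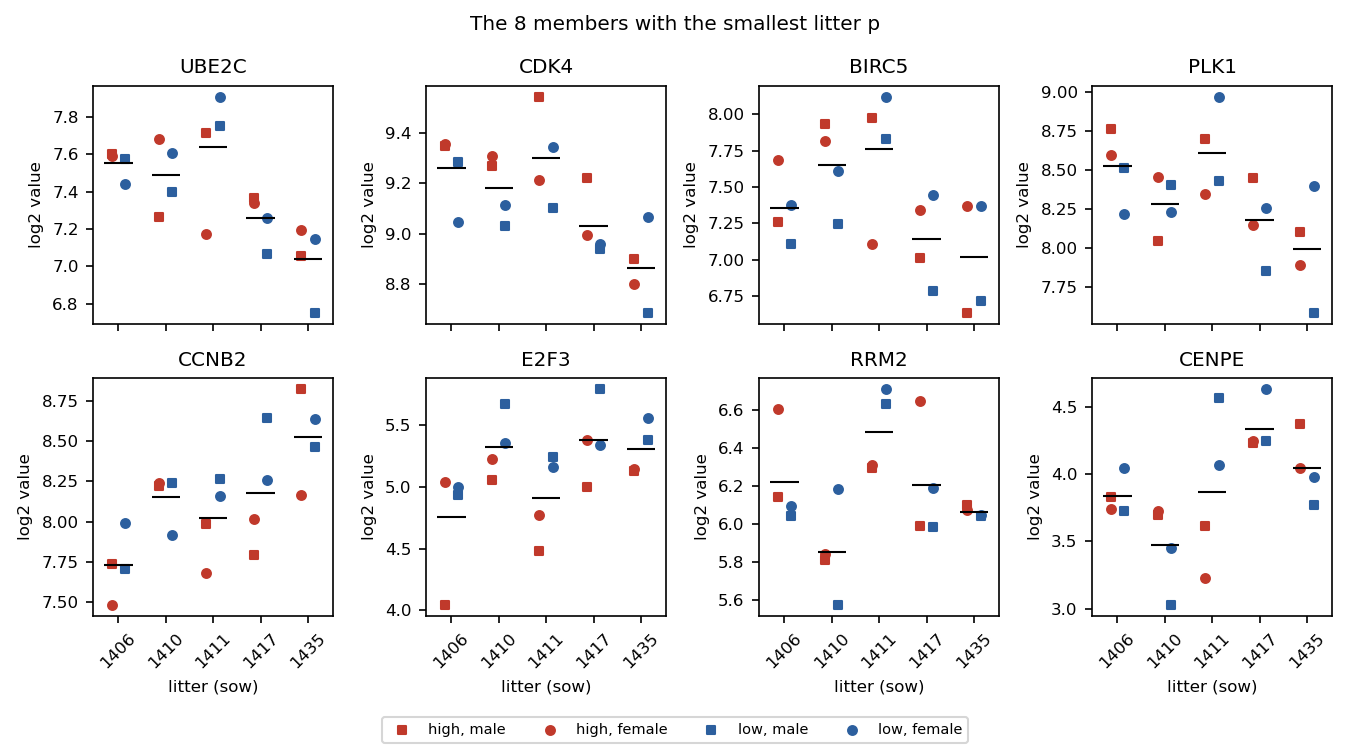
Log2 values of the 8 cell cycle genes with the smallest litter p in each pig, by sow (red high, blue low feed efficiency, squares male, circles female), with the litter mean as a line. UBE2C, CDK4, BIRC5 and PLK1 have their highest mean in the litter of sow 1411 and their lowest in that of sow 1435, whereas CCNB2 has its highest mean, 8.52, in the litter of sow 1435.

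The mitosis genes stood out in co-variation over pigs. The median Pearson correlation between mitosis genes was 0.41 over 231 pairs, of which 41.1% were over 0.5, beside a median of 0.015 and 5.21% over 0.5 among 55825461 pairs of all named genes. Between replication genes the median was 0.02 over 78 pairs, close to that of all named genes, and between a replication and a mitosis gene it was 0.04 over 286 pairs. G1/S control genes had a median of 0.09 among themselves, with replication and with mitosis genes. These correlations are across pigs that share litters and are given as a description. With litter means removed the median within mitosis was 0.45, and without any 1 pig or litter it lay between 0.31 and 0.47.

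A block of mitosis genes carried this. TOP2A correlated with KIF11, the kinesin that pushes spindle poles apart, at 0.96, with SMC4, a core subunit of condensin, at 0.91, with KIF23, of the midzone complex for cytokinesis, at 0.89, and with CENPF and NCAPG at 0.88 each. KIF11 ranged from 4.12 to 6.03 (median 4.52) in high and from 4.39 to 5.92 (median 4.78) in low efficiency pigs, and thus spanned as wide a range as TOP2A did.

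PLK1, UBE2C, BIRC5 and FOXM1, all mitosis genes too, stood outside that block. TOP2A had r = -0.37 with PLK1 and -0.16 with UBE2C, whereas PLK1 and UBE2C correlated with each other at 0.84 and UBE2C with BIRC5 at 0.76. CDK4, from G1/S control, followed PLK1 at 0.84 and UBE2C at 0.77, and MCM3 followed them at 0.68 and 0.69. The helicase genes were divided: MCM6 correlated with TPX2 at 0.84 and with TOP2A at 0.82, while MCM2 had -0.66 and -0.61 with the same genes and MCM5 -0.72 with CENPF. RRM1 correlated with CCNB1 at 0.83. Of the 286 pairs of a replication and a mitosis gene, 62 had r over 0.5 and 17 under -0.5.

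**Figure D4:**
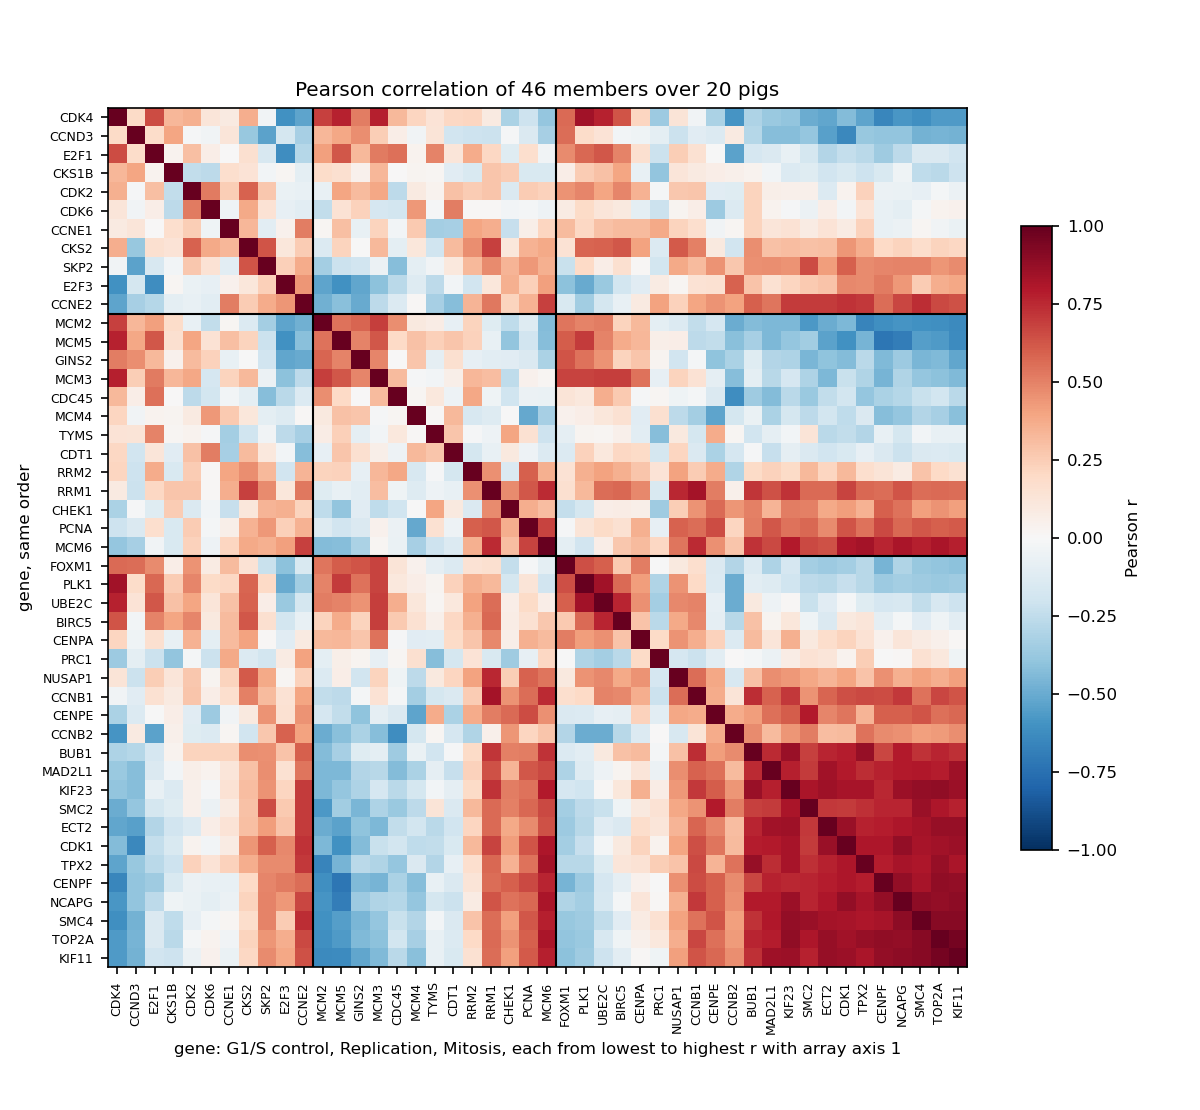
Pearson correlation over 20 pigs of all pairs of 46 cell cycle genes, ordered by role and within a role by the correlation with array axis 1; black lines divide the roles. The block from BUB1 to KIF11 is red throughout, with TOP2A and KIF11 at 0.96, MCM6 and PCNA join it, and CDK4, MCM2 and MCM5 are blue against it.

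The block followed array axis 1, which was computed without the 46 cell cycle genes described here but with other measured genes of the pathway. TOP2A had r = 0.85 with its score, KIF11 0.86, SMC4 0.84, NCAPG 0.82, TPX2 0.81 and CDK1, the kinase of mitotic entry, 0.80. Of the mitosis genes 14 of 22 had r over 0.5 and 2 had r under -0.5, FOXM1 (-0.60) and PLK1 (-0.57). Of the replication genes 1 of 13 was over 0.5 (MCM6, 0.70) and 4 were under -0.5 (MCM2 -0.73, MCM5 -0.64, GINS2 -0.63 and MCM3 -0.51), where GINS2 encodes a subunit of the GINS complex. Over all 46 genes 37.0% were over 0.5 and 17.4% under -0.5, beside 15.6% and 23.6% of all named genes. With the axis removed from every gene, the median correlation was 0.37 within mitosis, 0.15 within replication and 0.19 between the roles, against -0.0004 over all named genes. In these residuals TOP2A and MCM2 had r = 0.02, TOP2A and CCNB1 0.74, and PLK1 and TOP2A 0.28.

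The named genes outside the list that were most like TOP2A over 20 pigs were CSE1L (r = 0.96), CDC27 (0.95), MPHOSPH9 (0.95), VPS35 (0.94) and EIF3E (0.93). CSE1L encodes a nuclear export receptor, CDC27 a subunit of the anaphase-promoting complex, VPS35 a part of the retromer for endosomal sorting and EIF3E a subunit of a translation initiation factor. Among the 50 nearest named genes, all with r of at least 0.893, were 2 members of the list and 5 further genes of the cell cycle lists.

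Markers of epithelium moved against the block. All 7 had a negative correlation with TOP2A, from -0.35 (CLDN3) to -0.80 (CDX2), and their mean, centred per gene, had r = -0.83 with TOP2A and -0.83 with the axis. Of 5 measured markers of mature colonocytes 2 had a positive correlation with TOP2A, KRT20 (0.60), a keratin of the surface, and TMIGD1 (0.49), and 3 a negative one, down to -0.55 for CDKN2B. The epithelial mean was 0.0032 ± 0.21 in high and -0.0032 ± 0.17 in low efficiency pigs. Other lists moved with TOP2A to a lesser extent. The mean of 6 T cell markers had r = 0.45 with TOP2A and 0.57 with the axis, CD2 (0.62 with TOP2A) and CD3G (0.51) being the highest. The mean of 7 stroma markers had 0.45 and 0.46, with LUM at 0.73, DCN at 0.57 and VIM at 0.49. Among the same markers COL3A1 was at 0.12, whereas COL1A1 (-0.03), COL1A2 (-0.12) and PDGFRA (-0.13) had a negative r with TOP2A. The mean of 5 plasma cell markers had -0.38 and -0.52, with SDC1, which epithelium also expresses, at -0.84. With TOP2A, DERL3 (-0.41), TNFRSF17 (-0.25) and TXNDC5 (-0.19) had a weaker negative r and PRDM1 (0.26) a positive one. The means of 7 B cell, 8 crypt, 5 colonocyte and 4 smooth muscle markers had r with TOP2A of 0.23, -0.05, -0.11 and -0.15. The part of these markers in the co-variation was not tested.

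**Figure D5:**
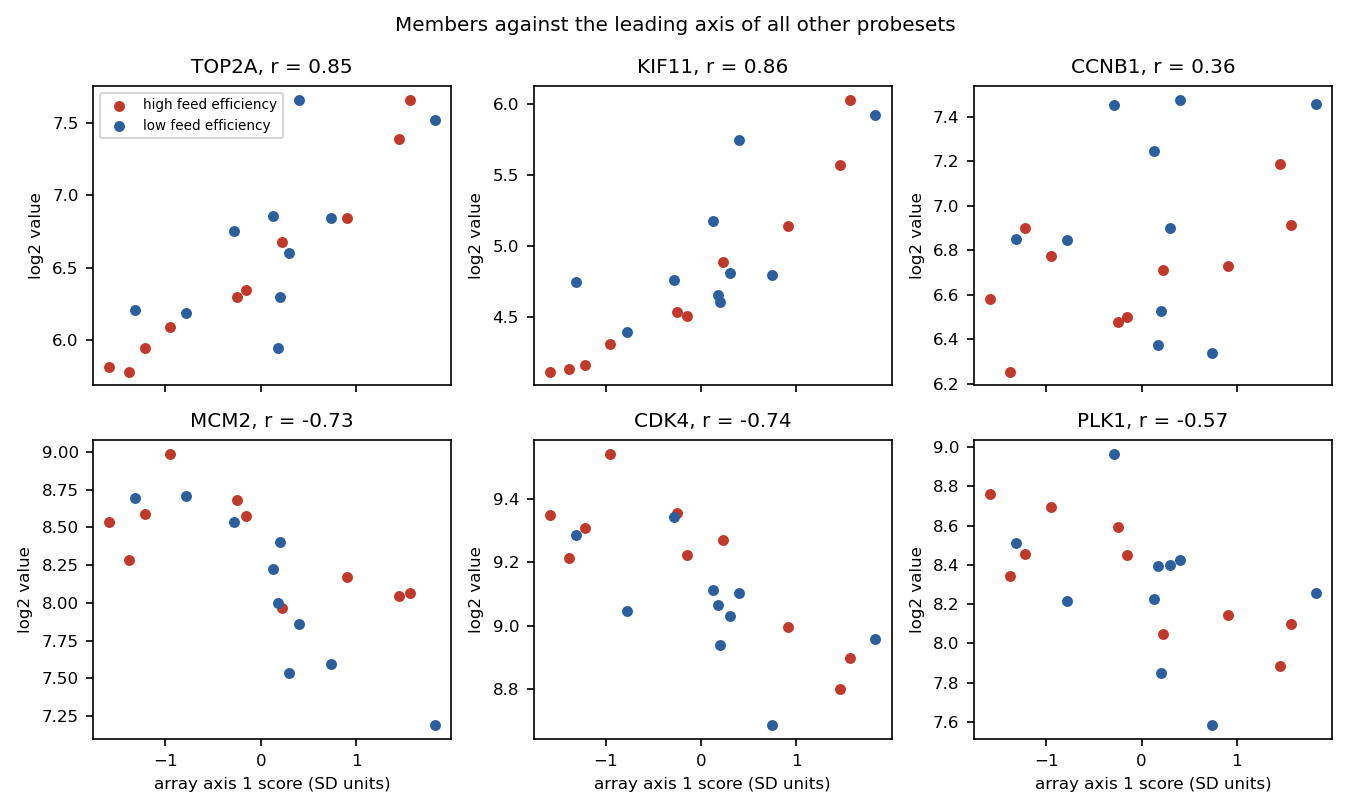
Log2 values of 6 cell cycle genes in 20 pigs against the score on array axis 1 (red high, blue low feed efficiency). TOP2A and KIF11 rise along the axis (r = 0.85 and 0.86), MCM2, CDK4 and PLK1 decline along it (r = -0.73, -0.74 and -0.57), and the brighter probeset of CCNB1 is spread widely around it (r = 0.36).

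Tests of correlation were run for 11 relations of single genes over the 20 pigs, with 100000 permutations and Benjamini-Hochberg adjustment over the 11. Since littermates may resemble each other, pigs were also permuted within litters only, on values with litter means removed, a test added after seeing the data. CCNB1 and its kinase CDK1 correlated at r = 0.64 (permutation p = 0.00242, adjusted 0.0118) and rho = 0.67 (p = 0.00189, adjusted 0.0176). Without the 2 pigs farthest from the median of CCNB1 r was 0.48, and with litter means removed it was 0.76 (permutation p within litters 0.00141, adjusted 0.0102). TOP2A and CCNB1 had r = 0.67 (permutation p = 0.00131, adjusted 0.0118) and rho = 0.64 (p = 0.00321, adjusted 0.0176), with 0.64 without the 2 extreme pigs and 0.80 within litters (permutation p = 0.00186, adjusted 0.0102). TOP2A and PCNA had r = 0.60 (permutation p = 0.00535, adjusted 0.0118) and rho = 0.58 (p = 0.00962, adjusted 0.0176), with 0.46 without the extreme pigs and 0.59 within litters, where it did not pass (permutation p = 0.0490, adjusted 0.0611).

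MCM2 went against TOP2A, with r = -0.61 (permutation p = 0.00392, adjusted 0.0118) and rho = -0.57 (p = 0.00918, adjusted 0.0176), -0.63 without the extreme pigs and -0.52 within litters, where it did not pass (permutation p = 0.0514, adjusted 0.0611). MCM2 and MCM5 had r = 0.54 (permutation p = 0.0133, adjusted 0.0184) but rho = 0.37 (p = 0.110, adjusted 0.151), and r was 0.37 without the 2 pigs farthest from the median of MCM2 and 0.47 within litters (permutation p = 0.0556, adjusted 0.0611). MCM2 and CCNB1 had r = -0.25 (permutation p = 0.296) and rho = -0.19 (p = 0.409).

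TOP2A was further set against genes outside the list. It had r = 0.60 with KRT20 (permutation p = 0.00513, adjusted 0.0118, rho = 0.60 with p = 0.00636), which was 0.72 without the extreme pigs and 0.65 within litters (permutation p = 0.00482, adjusted 0.0177). With MS4A1 r was 0.58 (permutation p = 0.00798, adjusted 0.0146, rho = 0.52 with p = 0.0214), 0.55 without the extreme pigs and 0.52 within litters, where it did not pass (permutation p = 0.0495, adjusted 0.0611). MS4A1 was alone in this among the B cell markers, since the other 6 had r with TOP2A between -0.04 (CD79A) and 0.28 (FCRLA). With the axis removed both relations were near 0, at -0.12 and 0.12, while that of TOP2A with PCNA was 0.45. CDKN1A, the inhibitor p21, had r = -0.35 (permutation p = 0.126, rho = -0.31 with p = 0.179), and -0.55 within litters, where it did not pass (permutation p = 0.0374, adjusted 0.0611). Other inhibitor and arrest genes were mixed along array axis 1, which TOP2A followed. BTG1 (r = 0.81), CDKN1B (0.75), GMNN (0.73) and RB1 (0.58) rose along it, whereas PKMYT1 (-0.78) and CDKN2B (-0.58) declined. CDKN1A itself had r = -0.22 with the axis. LGR5, a receptor of crypt stem cells, had r = 0.32 (permutation p = 0.169, rho = 0.31 with p = 0.182), but its mean of 1.66 was close to the filter bound of 1.62. Of the further crypt markers ASCL2 (-0.37), RNF43 (-0.34) and EPHB2 (-0.30) had a negative r with TOP2A. Those with a positive one were OLFM4 (0.38), SOX9 (0.11), CDCA7 (0.08) and MYC (0.06). TOP2A correlated with the pig number at r = 0.56 (permutation p = 0.0105, adjusted 0.0165) and rho = 0.57 (p = 0.00911), with 0.40 without the extreme pigs and 0.48 within litters (permutation p = 0.00838, adjusted 0.0230). With the axis removed its sign turned, to r = -0.71. The axis itself had r = 0.87 with the pig number and 0.85 with TOP2A, so that this value rests on the smaller part of both that the axis leaves.

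Probesets of the same gene did not always agree. Of the 46 genes 17 had over 1 probeset, and the median correlation over 77 pairs of probesets of 1 gene was 0.31. Both probesets of TOP2A correlated at 0.92 and both of TPX2 at 0.93. For TPX2 the efficiency difference was -0.31 ± 0.17 on the brighter and -0.08 ± 0.14 on the other probeset. Both CCNB2 probesets correlated at only 0.16. The dimmer one, with a mean of 5.30, followed CCNB1 (r = 0.66), which the brighter one did not (r = 0.13). Its efficiency difference was -0.23 ± 0.10 (p = 0.0288 unadjusted, adjusted p = 0.980 in limma), close to the -0.21 ± 0.11 of the brighter probeset, and the mean of both had p = 0.00883 unadjusted (adjusted p = 0.989). Its litter p was 0.675 unadjusted, so that the litter pattern of CCNB2 belonged to 1 of 2 probesets. The dimmer CCNB1 probeset correlated with the brighter one at 0.76, but had r = 0.75 with array axis 1 and 0.83 with TOP2A, above the 0.36 and 0.67 of the brighter one. PRC1 had 4 probesets, of which the brightest had an SD of 1.21 and the others SDs between 0.31 and 0.52. A dimmer one of these had r = 0.57 with TOP2A and 0.68 with CCNB1, and an efficiency difference of -0.27 ± 0.13 (p = 0.0478 unadjusted, adjusted p = 0.980 in limma). The remaining PRC1 probesets went the other way. The dimmer ones had differences of 0.11 ± 0.16 and 0.19 ± 0.22. The brightest, removed from the test, averaged 5.36 in high and 4.89 in low efficiency pigs. For TYMS, r between both probesets was -0.01, and the efficiency differences were 0.33 ± 0.29 and -0.11 ± 0.15. CDC45 had 10 probesets, whose correlations with the brightest were between 0.03 and 0.37.

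Other genes of the pathway were counted in lists of inhibitors and arrest genes, further replication genes and further mitosis genes. In these lists 13 of 20, 18 of 40 and 37 of 59 genes were measured, and none passed an adjusted p under 0.05 in any of the 4 comparisons (limma). At an unadjusted p under 0.05, feed efficiency had 0 of 12 inhibitors, 0 of 17 replication and 1 of 35 mitosis genes, beside 4.48% of all probesets. The mitosis gene was DLGAP5, a spindle protein that averaged 3.67 ± 0.64 in high and 3.06 ± 0.38 in low efficiency pigs, a difference of 0.62 ± 0.23 (p = 0.0167 unadjusted, adjusted p = 0.980). Litters differed at that threshold in 2 of 13 (15.4%), 7 of 18 (38.9%) and 3 of 37 genes (8.11%), beside 16.1% of all probesets, among them RFC5 of the clamp loader (p = 0.0178) and KIF22, a chromosome-arm kinesin (p = 0.00691). Between the sexes 0 of 13, 1 of 18 and 0 of 37 genes had such a p, beside 4.29% of all probesets, the single one being ORC4, a subunit of the origin recognition complex, with 0.42 ± 0.12 for male minus female (p = 0.00252 unadjusted, adjusted p = 0.9999). In the interaction of feed efficiency and sex 0 of 12, 0 of 17 and 1 of 35 genes had such a p, beside 4.11%, and the single one was KIF22 with 0.33 ± 0.15 (p = 0.0397 unadjusted, adjusted p = 0.999). CDKN1A averaged 8.62 ± 0.36 in high and 8.60 ± 0.41 in low efficiency pigs, a difference of 0.02 ± 0.16.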

How the data were processed

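The arrays were Affymetrix porcine snowball arrays, 1 per pig, and GCOS 1.1.1 is named in the processing notes of the submitters. The values the authors deposited are log2 intensities summarised per probeset by robust multichip averaging, a method that equalises arrays and can compress differences of dim probesets. Of 47845 probesets, 25092 had values in all 20 pigs. Of these, 16361 had 1 symbol in the platform annotation (331 updated by RefSeq synonyms) and 8731 had none. Other software versions were not given in the sources used here.

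The deposited values were tested with limma 3.58.1 in R 4.3.3, with two-sided tests and Benjamini-Hochberg adjustment over all probesets tested. The filters of the study were kept: probesets whose mean fell in the lowest 5% were dropped, and for feed efficiency and its interaction with sex also those whose SD exceeded the 95% quantile within each efficiency class. They left 23837 and 23140 probesets. Sow was a fixed factor. Slaughter batch, which the study modelled, was not analysed here. The pigs are separate animals. No 2 arrays were duplicates, since the SD of their log2 difference was at least 0.50. The fits were tested on simulated data. The members and gene lists were chosen with earlier results of these data known.

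Genes were named by rule: the 6 smallest p in each direction for feed efficiency, 8 for litter, 3 in each direction for sex, 2 in each direction for the interaction, the 3 largest and smallest SDs, PCNA, TOP2A, MCM2 and CCNB1 always, and the 5 genes most like TOP2A, which was put in the place of the unmeasured MKI67 after seeing the data. Genes in the accounts of single litters, probesets, correlations and fits without 1 litter were chosen after their values were seen. Alternatives covered the filters, covariates, prior, array weights, centring, probeset choice and leaving out pigs and litters.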

Additional observations from a re-analysis of the deposited data

Results flagged for a closer look

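In groups of 4 to 10 pigs the lowest or highest value of a named gene was compared with its neighbour by Dixon's test. Of 82 groups tested 5 had such a value, where chance gives about 1 in 20. CHEK1 was at 2.72 in the high efficiency female of sow 1411, with the next high efficiency value at 3.86. RRM1 had its lowest high efficiency value at 7.73, with the next at 7.94. Within litters, CCNB2 was at 7.91 in the low efficiency female of sow 1410 (next 8.22), E2F3 at 4.04 in the high efficiency male of sow 1406 (next 4.93) and CENPE at 4.63 in the low efficiency female of sow 1417 (next 4.25).

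The efficiency difference had opposite signs in both pairs of some litters. For the mean of mitosis genes, high minus low was 0.62 in the litter of sow 1435, against -0.33 in that of sow 1410 and -0.76 in that of sow 1411, with both pairs of each litter on the same side. For the mean of replication genes it was 0.14 (sow 1406), 0.22 (sow 1410) and 0.47 (sow 1417), against -0.33 (sow 1411) and -0.087 (sow 1435). In gene counts, 6, 7 and 10 of 13 replication genes were higher in the high efficiency pigs of sows 1406, 1410 and 1417. In those of sows 1411 and 1435, 6 and 8 of 13 were higher. For sows 1406 and 1435 the sign of the mean was thus not that of most genes. The mean included CDT1, which the SD filter had removed from the test and which had wide pair differences. In the female and male pairs these were 2.77 and 0.07 for sow 1406, 2.23 and 2.60 for sow 1417, and -0.44 and -1.39 for sow 1435. The differences between litters were not tested, and each mean rests on 2 pairs. High minus low of the array axis 1 score also had opposite signs in the litters of sows 1435 and 1411, in both pairs of each.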

How the results depend on the processing

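No cell cycle gene passed an adjusted p under 0.05 for feed efficiency, sex or their interaction in any alternative, and 1 passed for litter in 1 alternative, so that leaving out single pigs gave 0 to 1 litter calls. Counts at an unadjusted p under 0.05 moved more. For feed efficiency (1 gene) the count was 4 with pig number as a covariate, 2 with array axis 1, 3 with the mean of all probesets, 2 with each pair of 1 sow and 1 sex as a replicate block, and 1 to 14 with pigs or litters left out. The 14 came without the litter of sow 1435, and 5 without its high or its low efficiency female. For litter (8) it was 5 with pig number and 6 to 10 with pigs left out. For sex (0) it was 5 with array weights, 1 each with the mean filter at the median, a trended robust prior, centred arrays, pig number and axis 1, and 0 to 5 with pigs or litters left out. For the interaction (2) it was 1 with the filter at the median, 5 with axis 1 and 2 to 4 with pigs left out. The pair block changed no other call. CDC45 turned to 0.0093 in the interaction with the mean of all probesets, against -0.23. The median correlation within replication (0.02) was 0.15 after axis 1 and 0.012 to 0.13 with pigs or litters left out, and that between replication and mitosis (0.04) was 0.19 after axis 1 and -0.065 to 0.062 with pigs or litters left out. The median efficiency difference of mitosis genes ran from -0.40 (without the litter of sow 1435) to 0.0073 (without that of sow 1411), and that of replication genes from -0.024 to 0.087 with pigs or litters left out. Array axis 1 and TOP2A for MKI67 were chosen after seeing the data, and causes were not tested. Replicate numbers of the groups do not pair pigs. LGR5, near the filter bound, and dim probesets limit what can be seen.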
